A study of Homo sapiens with 16 samples.

Results

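The human zinc finger genes ZNF700 to ZNF899 were examined in H9 cells, a human embryonic stem cell line. Genes were taken by name, as the symbols ZNF700 to ZNF899 with an optional letter A or B, and had to have a translation ratio in every culture. Of 104 such symbols in the deposited table of 28252 genes, 86 met the rule, out of 15864 genes tested in all, and measured values played no part in the choice. Cells received an siRNA against OCT4 (siOCT4; OCT4 is the pluripotency transcription factor encoded by POU5F1) or a control siRNA (labelled NC) and were kept at 1% or 20% oxygen, in mTeSR1 medium without feeder cells. The 4 groups were siOCT4 at 1% oxygen, siOCT4 at 20% oxygen, control siRNA at 1% oxygen and control siRNA at 20% oxygen. Each group had 2 cultures, and each culture gave a library of total RNA and a library of the RNA held in ribosome-nascent chain complexes (RNC), so that 16 libraries made 8 cultures. Table columns named sO were taken to be siOCT4 cultures. The translation ratio is the authors' value of the RNC level over the RNA level. A high ratio means that the RNC level of a gene was high for its RNA level. Ratios of the 86 genes reached 16.1, so a ratio is no share of an mRNA. The labels leave unsaid if the 2 cultures of each group came from separate dishes. The p-values here measure only the spread between these samples, which may be technical. A change of a ratio can come from either level, since neither level is in the table, and the sequencing depth behind a ratio is unknown. All 12 listed pluripotency markers had a ratio in all 8 cultures, which for a ratio shows detection and no level, so that the depletion of OCT4 itself could not be checked. A ratio in all 8 cultures was also given for 4 of 7 fibroblast, 3 of 6 trophoblast, 3 of 3 neuroectoderm, 4 of 4 endoderm and 1 of 4 mesoderm markers.

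Proteins of this family read DNA with tandem Cys2-His2 zinc fingers, short loops held by a zinc ion that each contact a few bases and are joined by a conserved linker. Many also carry a KRAB domain near the amino end, which recruits the corepressor TRIM28 (KAP1); TRIM28 in turn brings the histone methyltransferase SETDB1 and heterochromatin protein HP1 to the bound site. In embryonic stem cells such proteins are known for silencing transposable elements, and many of their genes lie in clusters on chromosome 19 that grew by duplication.

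Names, chromosomes and sequences of the 86 genes came from GENCODE release 29. Of the genes, 47 lay on chromosome 19, 10 on chromosome 7 and 8 on chromosome 16, and the remaining 21 on 10 other chromosomes. A coding sequence was annotated for 85, with ZNF883 the exception. Letters typical of a KRAB domain were found in 62 of the 85 translations and not in 23, and the median number of fingers was 11, in a range from 0 to 30, highest in ZNF850. Transcript GC content had a median of 42.5% (range 36.1% to 71.1%), against 49.9% over all genes tested. The genes are related but distinct: the 2 most alike proteins, ZNF799 and ZNF823, were identical at 73.3% of positions. In 8 genes more than 10% of the transcript's 50-base words also occurred in another gene, up to 34.1% in ZNF799, shared mainly with ZNF443. How the authors' counting treated such reads is not given in the sources used here, so ratios of ZNF799, ZNF773, ZNF814, ZNF888, ZNF808, ZNF852, ZNF761 and ZNF805 are uncertain to that extent. In 45 genes the annotation overlaps a gene on the other strand, and whether strand was used in counting is not given either. A ratio was called recurrent where at least 3 genes of a culture shared it within a relative tolerance of 2e-06, as happens when a ratio is made of few reads. Recurrent ratios occurred for 47 of the 86 genes, in 1 culture for 29 of them, in 2 to 4 cultures for 13 and in 5 to 8 cultures for 5, and 39 genes had none.

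The remaining 18 symbols lacked a ratio in at least 1 culture and were not tested. ZNF705B, ZNF716, ZNF723, ZNF727, ZNF728, ZNF729, ZNF735, ZNF736 and ZNF831 had none in any culture. ZNF750, a regulator of epidermal differentiation, had a ratio in 6 cultures, and ZNF804A, a gene known from psychiatric genetics, in 4. ZNF705A, ZNF717 and ZNF804B had 1, ZNF807 had 2, ZNF843 had 6, and ZNF781 and ZNF806 had 7.

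The translation ratios of the 86 genes were high in the siOCT4 cultures in 1% oxygen and the control cultures in 20% oxygen and close to 1 in the other 4 cultures. The median ratio was 2.99 and 3.03 in siOCT4 cells in 1% oxygen, 1.18 and 1.18 in siOCT4 cells in 20% oxygen, 1.18 and 1.19 in control cells in 1% oxygen, and 2.54 and 2.55 in control cells in 20% oxygen. Over all genes tested the medians were 1.35 and 1.32, 1.12 and 1.11, 1.02 and 1.02, and 1.14 and 1.20 in the same order of groups. The 382 other ZNF genes, those numbered below ZNF700, had medians of 3.55 and 3.67, 1.28 and 1.22, 1.12 and 1.25, and 3.05 and 2.77. The 2 cultures of each group thus lay close together in their medians. The spread between genes also differed between the groups. The middle 50% of the 86 genes ran from 1.31 to 4.59 and from 1.31 to 4.37 in the siOCT4 cultures in 1% oxygen, and from 0.943 to 4.35 and from 1.03 to 3.78 in the control cultures in 20% oxygen. In siOCT4 cultures in 20% oxygen it ran from 1.04 to 1.46 and from 0.989 to 1.43, and in control cultures in 1% oxygen from 0.853 to 1.42 and from 0.924 to 1.52.

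**Figure D1:**
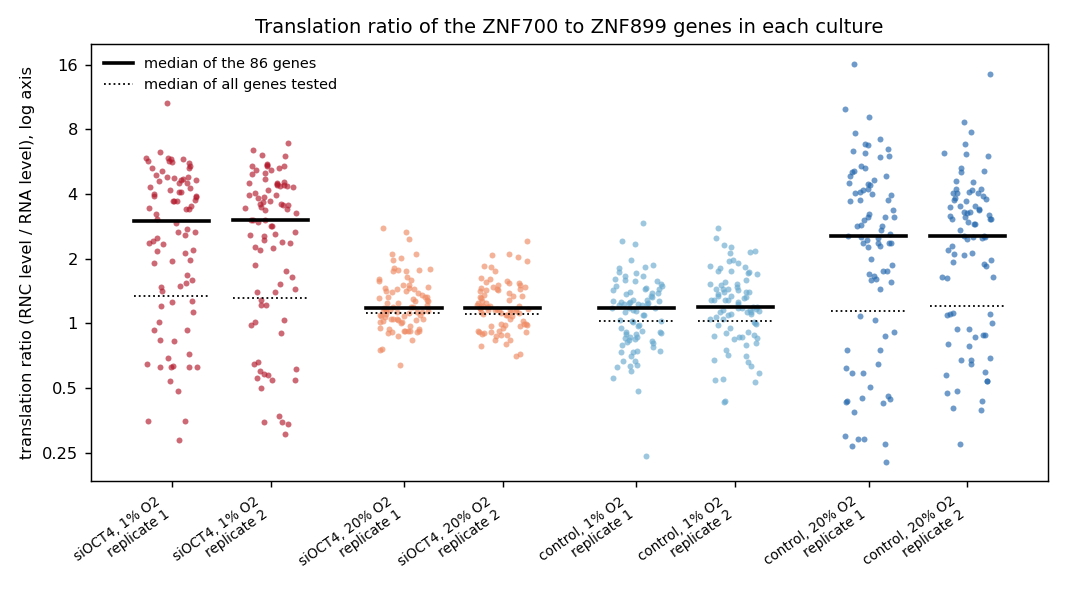
Translation ratio (log axis) of each of the 86 genes in each of the 8 cultures; the solid line is the median of the 86 genes and the dotted line the median of all 15864 genes tested. The siOCT4 cultures in 1% oxygen and the control cultures in 20% oxygen have medians between 2.54 and 3.03 and a wide spread, and the other 4 cultures have medians between 1.18 and 1.19 and a narrow one.

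Both ends of the order in control cells in 20% oxygen are given for the genes with no recurrent ratio. The 5 highest of these were ZNF770, ZNF879, ZNF816, ZNF709 and ZNF711, the last a zinc finger activator of the ZFX family whose loss causes X-linked intellectual disability. The 5 lowest were ZNF746, ZNF777, ZNF865, ZNF707 and ZNF768, of which ZNF746 (PARIS) is a KRAB protein degraded through parkin that represses PPARGC1A. In the control cultures in 20% oxygen ZNF770 had ratios of 9.18 and 6.85 and ZNF746 had ratios of 0.298 and 0.396. In the siOCT4 cultures in 1% oxygen the same 2 genes had 5.30 and 5.43 for ZNF770 and 0.627 and 0.614 for ZNF746. In control cultures in 1% oxygen their order was reversed, with 0.734 and 0.948 for ZNF770 and 1.82 and 1.38 for ZNF746. The place of ZNF879 rested on 1 culture, with ratios of 16.1 and 3.37 in the 2 control cultures in 20% oxygen.

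Genes at opposite ends carry the same protein unit in different bases. The stretches below each code for 1 finger (lower case) and the linker to the next finger (capitals), the first such unit in the coding sequence with the canonical spacing. Each lies in the last coding exon of the annotated transcript on GRCh38, whereas the submitters' notes name hg19 for the ratios. They are shown because each set of 27 codons spells the same kind of unit while the third bases of the codons differ. The first 4 genes are among the lowest in control cells in 20% oxygen and the last 4 among the highest.
ZNF746 (chr7:149474705-149474785, minus strand): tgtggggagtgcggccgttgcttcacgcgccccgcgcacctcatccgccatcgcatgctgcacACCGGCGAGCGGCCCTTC
ZNF777 (chr7:149432280-149432360, minus strand): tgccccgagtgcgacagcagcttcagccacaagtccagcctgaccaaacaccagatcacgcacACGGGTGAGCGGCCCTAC
ZNF865 (chr19:55614672-55614752, plus strand): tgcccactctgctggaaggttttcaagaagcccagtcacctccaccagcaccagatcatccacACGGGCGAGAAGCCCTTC
ZNF768 (chr16:30525273-30525353, minus strand): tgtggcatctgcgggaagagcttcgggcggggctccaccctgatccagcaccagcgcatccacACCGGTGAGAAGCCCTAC
ZNF879 (chr5:179032648-179032728, plus strand): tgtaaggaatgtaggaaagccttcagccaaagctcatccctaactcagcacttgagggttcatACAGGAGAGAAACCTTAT
ZNF816 (chr19:52950836-52950916, minus strand): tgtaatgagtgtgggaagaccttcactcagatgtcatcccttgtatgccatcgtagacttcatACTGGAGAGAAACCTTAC
ZNF709 (chr19:12465418-12465498, minus strand): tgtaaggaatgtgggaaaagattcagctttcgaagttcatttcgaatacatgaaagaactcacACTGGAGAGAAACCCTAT
ZNF711 (chrX:85271061-85271141, plus strand): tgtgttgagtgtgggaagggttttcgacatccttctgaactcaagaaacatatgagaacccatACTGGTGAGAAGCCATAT
In these units A or T was the third base of 3, 2, 3 and 2 of the 27 codons in ZNF746, ZNF777, ZNF865 and ZNF768, and of 15, 16, 20 and 18 of the 27 in ZNF879, ZNF816, ZNF709 and ZNF711. ZNF770 held no unit with this spacing. GC content at the third codon positions of the whole coding sequence ran the same way, from 72.0% in ZNF768 to 89.0% in ZNF865 among the 4 low genes and from 31.8% in ZNF709 to 42.5% in ZNF879 among the 4 high genes. The low genes also belong to different parts of the family. ZNF777 and ZNF746 hold KRAB letters and lie together on chromosome 7, while ZNF768, which is known to bind MIR repeats, and ZNF865 have no such letters.

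Across the 86 genes the ratio followed transcript GC content most steeply in those groups where ratios were high. Pearson's r between the log2 ratio and GC content was -0.872 and -0.905 in siOCT4 cultures in 1% oxygen, -0.586 and -0.330 in siOCT4 cultures in 20% oxygen, 0.016 and -0.477 in control cultures in 1% oxygen, and -0.889 and -0.872 in control cultures in 20% oxygen. Spearman's rho was -0.706 and -0.713, -0.685 and -0.462, 0.0575 and -0.349, and -0.759 and -0.756 in the same order of groups. By rank, the first siOCT4 culture in 20% oxygen thus followed GC content nearly as closely as the siOCT4 cultures in 1% oxygen. These values run across genes that share libraries, depth and, in part, sequence, so they are a description and carry no p. The matching slopes were -1.06 and -1.13, -0.241 and -0.122, 0.00909 and -0.276, and -1.32 and -1.07 log2 units per 10 percentage points of GC. The same dependence was present over all 15395 tested genes with a GC content. There a spline on GC accounted for 63.3% and 65.3% of the variance of the log2 ratio in siOCT4 cultures in 1% oxygen, 14.0% and 8.95% in siOCT4 cultures in 20% oxygen, 0.0886% and 9.83% in control cultures in 1% oxygen, and 70.6% and 63.9% in control cultures in 20% oxygen. Among the 86 genes r was as close with GC content at the third codon positions (-0.890 and -0.873 in control cultures in 20% oxygen, 85 genes), and weaker with the number of fingers (0.339 and 0.367) and with transcript length (0.216 and 0.264).

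By GC class the order was clear in the same 2 groups. Of the 39 genes under 42% GC, all 39 had a ratio above 1 in each of those 4 cultures. Of the 16 genes at 58% GC and over, 0 and 1 had one in siOCT4 cells in 1% oxygen and 0 and 1 in control cells in 20% oxygen. AT-rich members of the family thus lay above 1 and GC-rich members nearly all below 1 in these 2 groups. The 39 genes under 42% GC reached medians of 4.51 and 4.38 in siOCT4 cells in 1% oxygen and 4.07 and 3.69 in control cells in 20% oxygen. The 16 genes at 58% GC and over had 0.627 and 0.551 in siOCT4 cells in 1% oxygen, and 0.430 and 0.622 in control cells in 20% oxygen. All genes tested had similar medians in these classes, with 3.77 and 3.80 and then 4.84 and 4.06 under 42% GC, and 0.489 and 0.477 and then 0.415 and 0.637 at 58% and over, siOCT4 cells in 1% oxygen first. In the remaining groups the classes lay closer together. In siOCT4 cells in 20% oxygen the 2 classes of the family had medians of 1.42 and 1.35 and of 0.946 and 1.11, and in control cells in 1% oxygen 1.14 and 1.39 and 1.16 and 0.776.

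Genes with KRAB letters had higher ratios than those without, and they were also poorer in GC. In control cells in 20% oxygen the 62 genes with KRAB letters had median ratios of 3.08 and 3.06 at a median GC of 41.9%, and the 23 without had 0.748 and 0.860 at 57.8%. Under 50% GC the 51 genes with these letters had median ratios of 3.74 and 3.31 and the 9 without had 2.85 and 2.73. Their median GC contents were 41.03% and 40.38%, so in this class the genes with KRAB letters were not the poorer in GC. At 50% GC and over the 11 genes with them had 0.620 and 0.883 and the 14 without had 0.439 and 0.663, at median GC contents of 57.95% and 63.85%. Chromosomes were compared in the same way. The 47 genes on chromosome 19 had median ratios of 3.11 and 3.13 and the 39 elsewhere 1.66 and 1.65. Under 50% GC the 40 genes on chromosome 19 had 3.72 and 3.36 and the 21 elsewhere 3.14 and 3.16. At 50% GC and over the 7 on chromosome 19 had 0.443 and 0.596 and the 18 elsewhere 0.546 and 0.684. None of these differences between classes was tested.

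**Figure D2:**
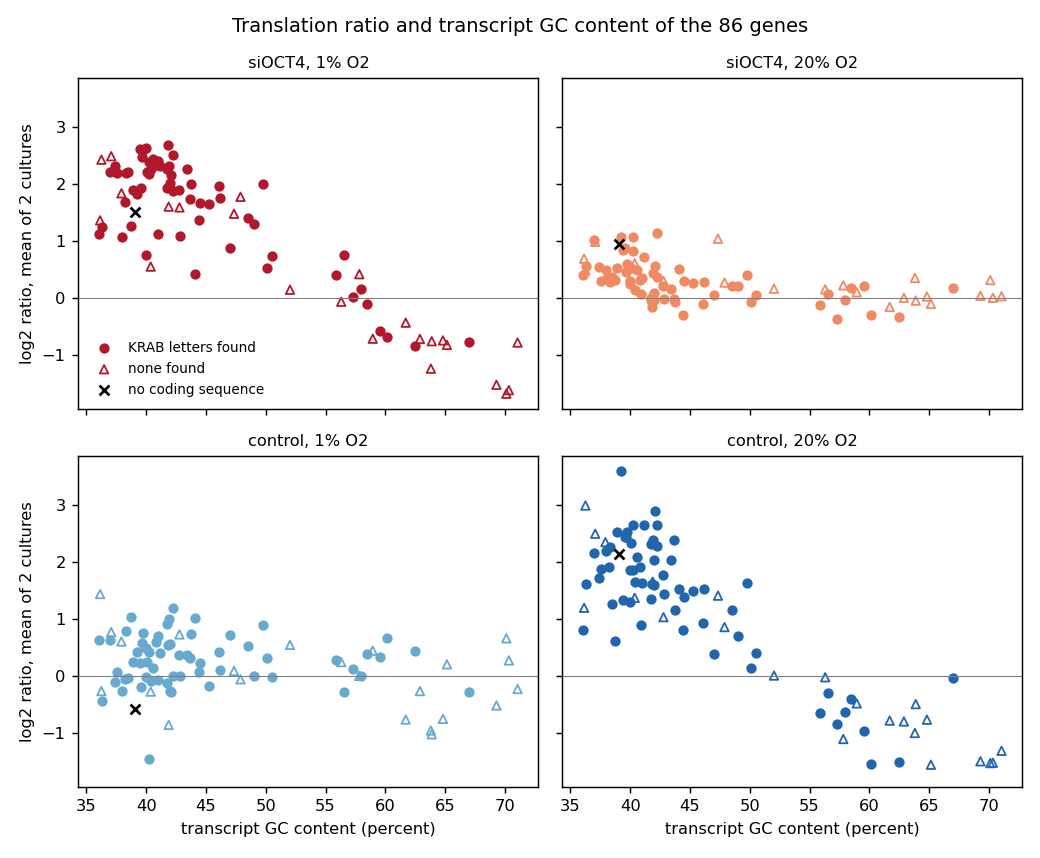
Mean log2 translation ratio of the 2 cultures of a group against transcript GC content for the 86 genes, 1 panel per group; filled circles have KRAB letters, open triangles have none and the cross is ZNF883, with no coding sequence. The ratio falls with GC content in siOCT4 cells in 1% oxygen and in control cells in 20% oxygen, for genes with and without KRAB letters. In the other 2 groups it changes much less with GC content.

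**Figure D3:**
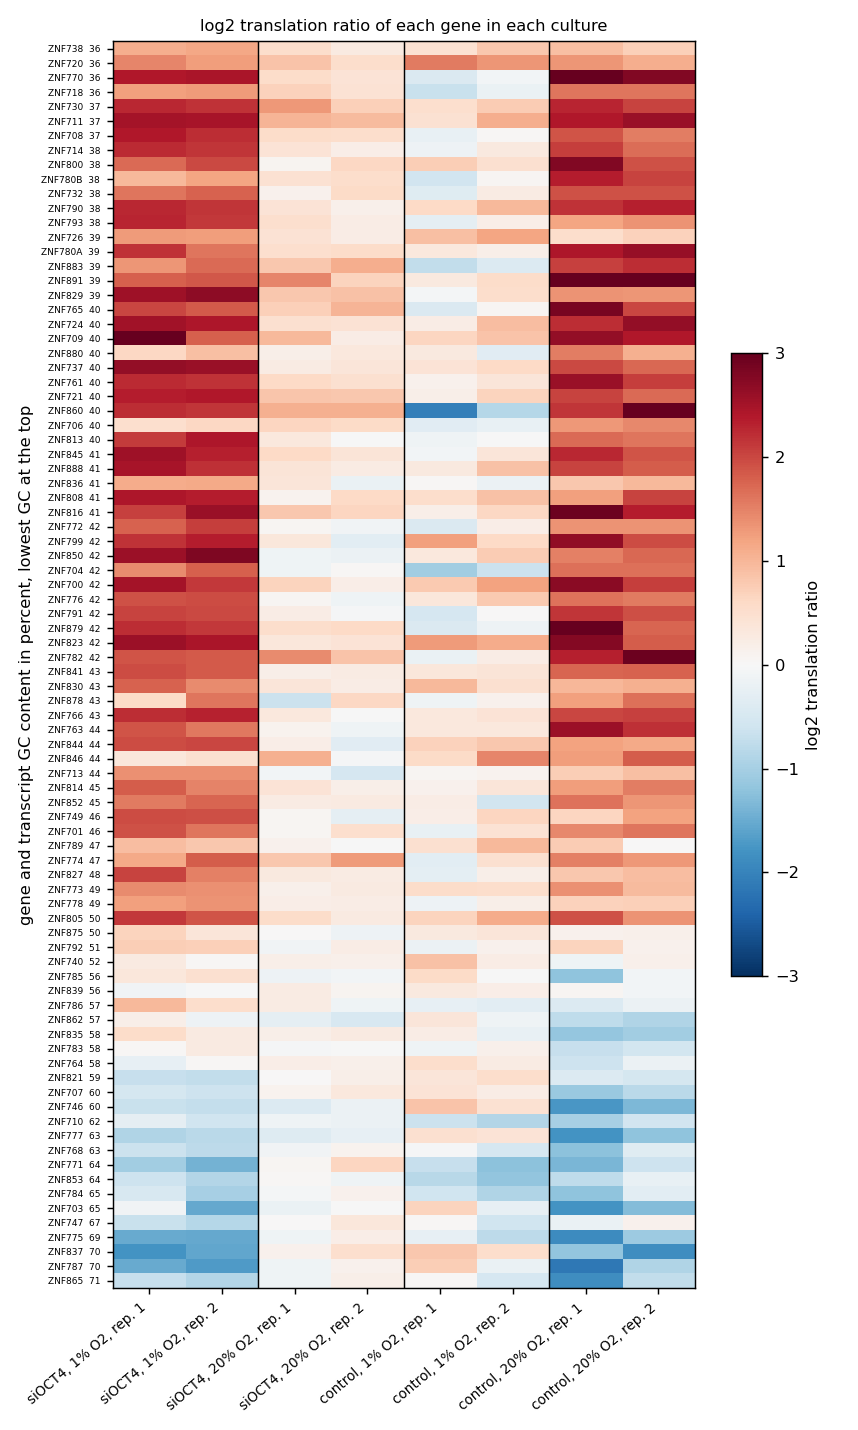
The log2 translation ratio of each gene (rows, ordered from the lowest transcript GC content at the top, which is printed in percent beside the name) in each culture (columns), with red above and blue below a ratio of 1. Rows at the top are red in siOCT4 cells in 1% oxygen and control cells in 20% oxygen and pale in the other 4 cultures, and the 16 genes at 58% GC and over at the bottom are blue there, with 1 exception in 1 culture of each group.

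Because GC content moves with the result, each comparison is given for ratios as deposited and for GC corrected values, the residuals of the log2 ratios of a culture from its spline on GC content over all genes. Changes are log2 differences ± SE, n is 2 cultures per group throughout, and a gene was called where limma's Benjamini-Hochberg adjusted p over all genes tested was under 0.05, two-sided. The part of GC content in a single gene's change was not tested. The median log2 ratio over all genes itself differed between the groups compared, by -0.075, 0.382, -0.196 and 0.260 in the first 4 comparisons below, and centring on the median takes this shift away. GC corrected fits covered the 15395 genes with a GC content.

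The siOCT4 effect at 20% oxygen was examined first. Most of the 86 genes had a lower ratio in siOCT4 cells than in control cells: 63 were called, 11 higher and 52 lower, with a median log2 difference of -1.08. Of all genes tested 53.3% were called, 19.2% higher and 34.1% lower, and of the 382 other ZNF genes 71.5%, 9.16% higher and 62.3% lower. Under 42% GC 35 of 39 genes were called lower (89.7%), against 85.1% of all tested genes in that class, and at 58% GC and over 9 of 16 were called higher (56.3%), against 51.2%. GC corrected, 16 of the 86 were called, 10 higher and 6 lower, at a background of 15.7% (7.53% higher, 8.13% lower), with a median of -0.12. That count was 10 with either control culture at 1% oxygen left out, 7 with either siOCT4 culture at 1% left out, 3 without the first control culture at 20% and 0 with either siOCT4 culture at 20% left out. The shares of calls were thus close to those of all genes of like GC content and, GC corrected, to those of all genes. After quantile normalization 1 gene was called higher and 6 lower, at a background of 11.6%. By domain, 45 of the 62 genes with KRAB letters were called lower and 4 higher as deposited. Of the 23 without KRAB letters 6 were called lower and 7 higher. GC corrected, 4 of the genes with KRAB letters were called lower and 7 higher (17.7% in either direction). Of those without, 2 were then called lower and 3 higher (21.7%).

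Genes are named below for size of change only where they had no recurrent ratio and the cultures of the groups compared did not overlap. The largest decline among these was that of ZNF770, which has 11 fingers and no KRAB letters. Its ratios were 1.46 and 1.34 in siOCT4 cultures in 20% oxygen, against 9.18 and 6.85 in control cultures, a log2 difference of -2.50 ± 0.21, adjusted p = 0.00065. ZNF791 had 1.17 and 0.973 in siOCT4 cultures, against 4.40 and 3.82 in control cultures (-1.94 ± 0.21, adjusted p = 0.00098). Both stayed lower GC corrected, ZNF770 (-0.65 ± 0.10, adjusted p = 0.019) and ZNF791 (-0.57 ± 0.13, adjusted p = 0.042). ZNF816 had 1.75 and 1.57 in siOCT4 cultures, against 7.68 and 5.12 in control cultures (-1.92 ± 0.29, adjusted p = 0.0031), and did not pass GC corrected (-0.45 ± 0.23, adjusted p = 0.23). ZNF879 (-2.32 ± 0.68, adjusted p = 0.032) and ZNF709 (-1.92 ± 0.55, adjusted p = 0.03) were also called lower, but each call held in only 2 of the 8 fits that leave out 1 culture. These were the fits without a siOCT4 culture in 1% oxygen for ZNF709 and without a control culture in 20% oxygen for ZNF879. Differences of ZNF709 ran from -2.29 to -1.54. Without the first control culture at 20% oxygen the difference of ZNF879 was -1.20, and without the second -3.46.

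Higher ratios in siOCT4 cells were found mostly for genes rich in GC. ZNF746 had 0.748 and 0.879 in siOCT4 cultures, against 0.298 and 0.396 in control cultures (1.24 ± 0.22, adjusted p = 0.0059). ZNF707 had 1.08 and 1.25 in siOCT4 cultures, against 0.461 and 0.574 in control cultures (1.18 ± 0.17, adjusted p = 0.0027). In both genes the 2 groups did not overlap, and neither passed GC corrected (ZNF746 0.42 ± 0.11, adjusted p = 0.06; ZNF707 0.40 ± 0.12, adjusted p = 0.078). ZNF777 (1.18 ± 0.23, adjusted p = 0.0075), ZNF865 (1.34 ± 0.40, adjusted p = 0.034) and ZNF821 (0.58 ± 0.14, adjusted p = 0.017) were called higher as well. Leaving out 1 culture ended the call of ZNF777 in 1 of 8 fits (second siOCT4 culture at 20% oxygen), that of ZNF821 in 2 (either siOCT4 culture at 20% oxygen) and that of ZNF865 in 5 (the first control culture at 20% oxygen or any siOCT4 culture). Without that control culture the difference of ZNF865 was 0.78. ZNF835 was the 1 gene called higher both as deposited and GC corrected, and ZNF763, ZNF766, ZNF770 and ZNF791 were called lower in both. In opposite directions 5 genes were called, namely ZNF706, ZNF708, ZNF718, ZNF721 and ZNF793. These names were taken from the lists of shared calls after their values were seen. Of them, ZNF835, ZNF763, ZNF706, ZNF708, ZNF718 and ZNF793 had a recurrent ratio in at least 1 culture. The share of all genes called alike in both settings is not given, here or in the comparisons below.

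At 1% oxygen the siOCT4 effect ran the other way. There 64 of the 86 genes were called, 57 higher and 7 lower in siOCT4 cells, with a median log2 difference of 1.33. The background was 61% of all genes tested (41.1% higher, 19.9% lower) and 80.1% of the other ZNF genes (75.7% higher, 4.45% lower). The median of all genes also lay above 0, at 0.42. Under 42% GC 36 of 39 genes were called higher (92.3%), against 83.4% of all genes in the class, and at 58% GC and over 7 of 16 were called lower (43.8%), against 47.5%. GC corrected, 29 of the 86 were called, 21 higher and 8 lower, at a background of 44.5% (21.9% higher, 22.6% lower), and the median was 0.23. That count was 18 with either siOCT4 culture at 1% oxygen left out, and 15 of the 29 calls held in all 8 fits that leave out 1 culture. Thus, GC corrected, 24.4% of the family were called higher and 9.30% lower, the first near the background and the second below it. After quantile normalization 20 genes were called higher and 11 lower, at a background of 40.4%. Of the 62 genes with KRAB letters 48 were called higher and 3 lower as deposited, and of the 23 without 8 were called higher and 4 lower. This comparison shares no culture with the comparison at 20% oxygen.

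ZNF770 again changed most among genes with no recurrent ratio, with 5.30 and 5.43 in siOCT4 cultures in 1% oxygen, against 0.734 and 0.948 in control cultures (2.68 ± 0.21, adjusted p = 0.00032). ZNF829 had 5.80 and 6.44 in siOCT4 cultures, against 0.968 and 1.43 in control cultures (2.38 ± 0.21, adjusted p = 0.00039). ZNF850, the gene with 30 fingers, had 5.88 and 6.91 in siOCT4 cultures, against 1.24 and 1.71 in control cultures (2.13 ± 0.20, adjusted p = 0.00047). The groups did not overlap in these genes, and each was also called higher GC corrected, in ZNF770 (0.91 ± 0.10, adjusted p = 0.0018), ZNF829 (0.70 ± 0.15, adjusted p = 0.013) and ZNF850 (0.62 ± 0.17, adjusted p = 0.033). ZNF813 (2.34 ± 0.18, adjusted p = 0.00032; GC corrected 0.72 ± 0.16, adjusted p = 0.015) and ZNF791 (2.26 ± 0.21, adjusted p = 0.00046; GC corrected 0.76 ± 0.13, adjusted p = 0.007) did the same. ZNF879 was called as deposited (2.44 ± 0.68, adjusted p = 0.023), but not in the 4 fits that leave out 1 of the 4 cultures compared, nor GC corrected (0.95 ± 0.63, adjusted p = 0.27).

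Of the genes with no recurrent ratio ZNF746 had the largest decline in siOCT4 cells in 1% oxygen, with 0.627 and 0.614 in siOCT4 cultures, against 1.82 and 1.38 in control cultures (-1.35 ± 0.22, adjusted p = 0.0032). Its neighbour ZNF777 had 0.538 and 0.574 in siOCT4 cultures, against 1.39 and 1.32 in control cultures (-1.28 ± 0.23, adjusted p = 0.0041). Both were called lower GC corrected too (ZNF746 -0.69 ± 0.11, adjusted p = 0.0056; ZNF777 -0.46 ± 0.14, adjusted p = 0.042). ZNF821 (-1.16 ± 0.14, adjusted p = 0.001; GC corrected -0.58 ± 0.23, adjusted p = 0.089) and ZNF707 (-0.90 ± 0.17, adjusted p = 0.0056; GC corrected -0.29 ± 0.12, adjusted p = 0.1) were called only as deposited. In all, 15 genes were called higher and 3 lower both as deposited and GC corrected. The 15 were ZNF704, ZNF708, ZNF714, ZNF737, ZNF766, ZNF770, ZNF778, ZNF786, ZNF791, ZNF813, ZNF827, ZNF829, ZNF845, ZNF850 and ZNF860, and the 3 were ZNF746, ZNF777 and ZNF787. ZNF706 was called in opposite directions. Among these names ZNF704, ZNF706, ZNF708, ZNF787, ZNF845 and ZNF860 had a recurrent ratio in at least 1 culture, ZNF860 in 5.

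The response to 1% oxygen was compared first within control cells. Of the 86 genes 63 were called, 12 higher and 51 lower at 1% than at 20% oxygen, with a median log2 difference of -1.09. The background was 60.2% of all genes tested (20.5% higher, 39.6% lower) and 73.0% of the other ZNF genes (9.69% higher, 63.4% lower). The median of all genes was -0.31. Under 42% GC 36 of 39 genes were called lower (92.3%, and 86.8% of all genes in the class), and at 58% and over 9 of 16 were called higher (56.3%, and 43.8% of all genes in the class). GC corrected, 33 genes were called, 20 higher and 13 lower, at a background of 46.2% (23% higher, 23.2% lower), and the median was 0.17, so that the sign of the median turned. The shares GC corrected were 23.3% higher and 15.1% lower. The count of 33 was 21 without the first control culture at 1% oxygen, and 15 of the 33 calls held in all 8 fits that leave out 1 culture. After quantile normalization 12 genes were called higher and 18 lower, at a background of 42.5%. This comparison uses the same control cultures as the siOCT4 comparisons, so its calls are no independent repeat of those.

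ZNF770 had 0.734 and 0.948 in control cultures in 1% oxygen, against 9.18 and 6.85 at 20% oxygen (-3.25 ± 0.21, adjusted p = 0.00016), and was called lower GC corrected too (-1.02 ± 0.10, adjusted p = 0.0011). ZNF883, the gene with no annotated coding sequence, had 0.597 and 0.753 at 1% oxygen, against 4.16 and 4.61 at 20% oxygen (-2.71 ± 0.21, adjusted p = 0.00022; GC corrected -0.73 ± 0.20, adjusted p = 0.03). ZNF791 was lower as well (-2.29 ± 0.21, adjusted p = 0.00035; GC corrected -0.69 ± 0.13, adjusted p = 0.0092). ZNF879 (-3.17 ± 0.68, adjusted p = 0.0092), ZNF765 (-2.62 ± 0.33, adjusted p = 0.001) and ZNF780B (-2.45 ± 0.25, adjusted p = 0.00046) were called lower only as deposited, and without the first control culture in 20% oxygen the difference of ZNF879 was -2.04. The AT-rich genes named here were thus lower at 1% oxygen, by more than the spread between cultures. Among the higher genes ZNF746 had 1.82 and 1.38 at 1% oxygen, against 0.298 and 0.396 at 20% oxygen (2.20 ± 0.22, adjusted p = 0.00048). ZNF777 had 1.39 and 1.32 at 1% oxygen, against 0.288 and 0.433 at 20% oxygen (1.94 ± 0.23, adjusted p = 0.0008). Both were far above their spread between cultures and stayed called GC corrected (ZNF746 1.53 ± 0.11, adjusted p = 0.00067; ZNF777 1.12 ± 0.14, adjusted p = 0.0022). ZNF707 was called in both as well (1.29 ± 0.17, adjusted p = 0.0014; GC corrected 0.65 ± 0.12, adjusted p = 0.0078), and ZNF821 only as deposited (0.92 ± 0.14, adjusted p = 0.0023). Calls as deposited and GC corrected had the same direction for 5 higher and 8 lower genes and opposite directions for 9 genes.

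Within siOCT4 cells 1% oxygen went with higher ratios. Here 58 of the 86 genes were called, 51 higher and 7 lower at 1% than at 20% oxygen, with a median log2 difference of 1.15. The background was 59% of all genes tested (37.4% higher, 21.6% lower) and 78.3% of the other ZNF genes (72.8% higher, 5.50% lower). The median of all genes was 0.27. Under 42% GC 33 of 39 genes were called higher (84.6%, and 78.5% of all genes in the class), and at 58% and over 7 of 16 were called lower (43.8%, and 52.1% of all genes in the class). GC corrected, 35 genes were called, 29 higher and 6 lower, at a background of 37.1% (19.1% higher, 18.1% lower). The median GC corrected difference of the 86 genes was 0.39, and that of the 382 other ZNF genes was 0.42 with 31.2% called higher and 2.88% lower. Of the 86 genes 33.7% were called higher and 6.98% lower GC corrected, the one share above and the other below the background. The count of 35 was 9 without the first siOCT4 culture at 1% oxygen, 20 without the second, and 13 and 7 without the first and the second siOCT4 culture at 20%, and 6 of the 35 calls held in all 8 such fits. After median centring 45 genes were called higher and 13 lower, at a background of 60.5%. After quantile normalization 15 were called higher and 4 lower (17.4% and 4.65%), at a background of 31.6% (17.3% higher, 14.4% lower). Corrected for GC content and length 18 were called higher and 3 lower (20.9% and 3.49%), at a background of 29.7% (14% higher, 15.6% lower). The share called higher thus lay near the background after quantile normalization. Calls as deposited and GC corrected had the same direction for 22 genes, all higher. Without the share of all genes called alike, this count cannot be read as particular to the family. In opposite directions 3 were called (ZNF718, ZNF720 and ZNF738), of which ZNF718 had a recurrent ratio in 2 cultures.

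ZNF850 changed most, with 5.88 and 6.91 in siOCT4 cultures in 1% oxygen, against 0.911 and 0.882 at 20% oxygen (2.83 ± 0.20, adjusted p = 0.00068; GC corrected 1.55 ± 0.17, adjusted p = 0.0035). ZNF737 had 6.25 and 6.05 at 1% oxygen, against 1.19 and 1.28 at 20% oxygen (2.32 ± 0.16, adjusted p = 0.00068; GC corrected 0.95 ± 0.11, adjusted p = 0.0036). ZNF766 had 4.66 and 4.98 at 1% oxygen, against 1.24 and 0.992 at 20% oxygen (2.12 ± 0.16, adjusted p = 0.00068; GC corrected 0.96 ± 0.15, adjusted p = 0.0066). In these 3 KRAB genes of chromosome 19 the cultures of a group lay close together and the groups far apart. ZNF813 (2.11 ± 0.18, adjusted p = 0.00071), ZNF749 (2.06 ± 0.25, adjusted p = 0.0013) and ZNF888 (2.02 ± 0.23, adjusted p = 0.0011) followed, all also called higher GC corrected. Of the 7 genes called lower, 4 had recurrent ratios, and the largest of these declines was -1.99 in ZNF837. The 3 with no recurrent ratio were ZNF747 (-0.94 ± 0.26, adjusted p = 0.024), ZNF821 (-0.81 ± 0.14, adjusted p = 0.0042) and ZNF707 (-0.80 ± 0.17, adjusted p = 0.0099). None of the 3 was called GC corrected, and ZNF747 then lay on the other side of 0 (0.38 ± 0.22, adjusted p = 0.21). Leaving out 1 culture ended the call of ZNF747 in 3 fits (either siOCT4 culture at 1% oxygen, or the second at 20%) and that of ZNF707 in 2 (the second siOCT4 culture at either oxygen level).

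**Figure D4:**
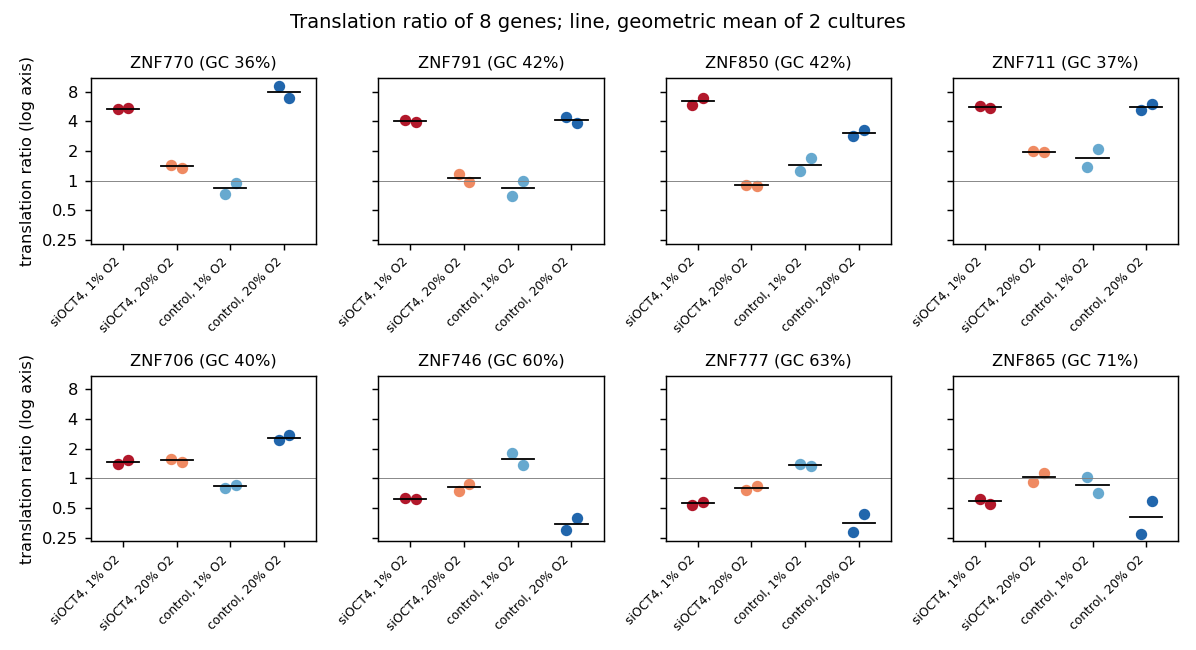
Translation ratio (log axis) of 8 genes in the 8 cultures by group, with each point a culture and the line the geometric mean of 2 cultures; transcript GC content is given beside the name. ZNF770, ZNF791, ZNF850 and ZNF711 are high in siOCT4 cells in 1% oxygen and control cells in 20% oxygen, ZNF746 and ZNF777 are highest in control cells in 1% oxygen, and ZNF706 is highest in control cells in 20% oxygen.

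The difference between the siOCT4 effects at 1% and at 20% oxygen was tested as an interaction. It was called for 70 of the 86 genes, 58 positive (a higher siOCT4 effect at 1% oxygen) and 12 negative, with a median of 2.55. The background was 68.7% of all genes tested (42.5% positive, 26.2% negative, median 0.49) and 87.2% of the other ZNF genes. The 4 simple comparisons and the interaction share cultures, so their calls are not independent of each other. GC corrected, 29 genes were called in the interaction, 19 positive and 10 negative, at a background of 43.9% (22.5% positive, 21.4% negative), with a median of 0.35. The shares of the 86 genes were 22.1% positive and 11.6% negative. The count of 29 was 18 without the first siOCT4 culture at 20% oxygen and 19 without the first at 1%, and 17 of the 29 calls held in all 8 fits that leave out 1 culture. After quantile normalization 18 were called positive and 10 negative, at a background of 44.3%. Calls as deposited and GC corrected had the same direction in 15 genes and opposite directions in 6. Of the 15, 12 were positive (ZNF701, ZNF704, ZNF763, ZNF766, ZNF770, ZNF773, ZNF778, ZNF791, ZNF805, ZNF827, ZNF845 and ZNF850). Among these 12, ZNF701, ZNF704, ZNF763, ZNF773, ZNF805 and ZNF845 had a recurrent ratio in at least 1 culture.

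Among genes with no recurrent ratio the interaction was largest in ZNF770 (5.19 ± 0.29, adjusted p = 8e-05; GC corrected 1.56 ± 0.14, adjusted p = 0.0013). ZNF791 (4.20 ± 0.30, adjusted p = 0.0001; GC corrected 1.34 ± 0.19, adjusted p = 0.0035) and ZNF850 (3.90 ± 0.28, adjusted p = 0.00011; GC corrected 1.00 ± 0.25, adjusted p = 0.022) were called in both as well. ZNF879 (4.77 ± 0.96, adjusted p = 0.0059), ZNF816 (3.85 ± 0.42, adjusted p = 0.00042) and ZNF813 (3.85 ± 0.26, adjusted p = 9.3e-05) were called as deposited and not GC corrected. On the negative side ZNF746 (-2.59 ± 0.32, adjusted p = 0.0007; GC corrected -1.11 ± 0.16, adjusted p = 0.0037), ZNF777 (-2.46 ± 0.32, adjusted p = 0.00092; GC corrected -0.66 ± 0.20, adjusted p = 0.04) and ZNF707 (-2.08 ± 0.25, adjusted p = 0.0006; GC corrected -0.68 ± 0.17, adjusted p = 0.022) were called in both. ZNF821 (-1.73 ± 0.20, adjusted p = 0.00054) was called only as deposited, and ZNF865 changed sign, as deposited (-1.89 ± 0.57, adjusted p = 0.026) against GC corrected (1.04 ± 0.15, adjusted p = 0.0035). The call of ZNF865 as deposited was lost in 4 of 8 fits that leave out 1 culture (the first control culture at 1% oxygen, either siOCT4 culture at 1% or the second siOCT4 culture at 20%), with differences from -2.45 to -1.33.

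**Figure D5:**
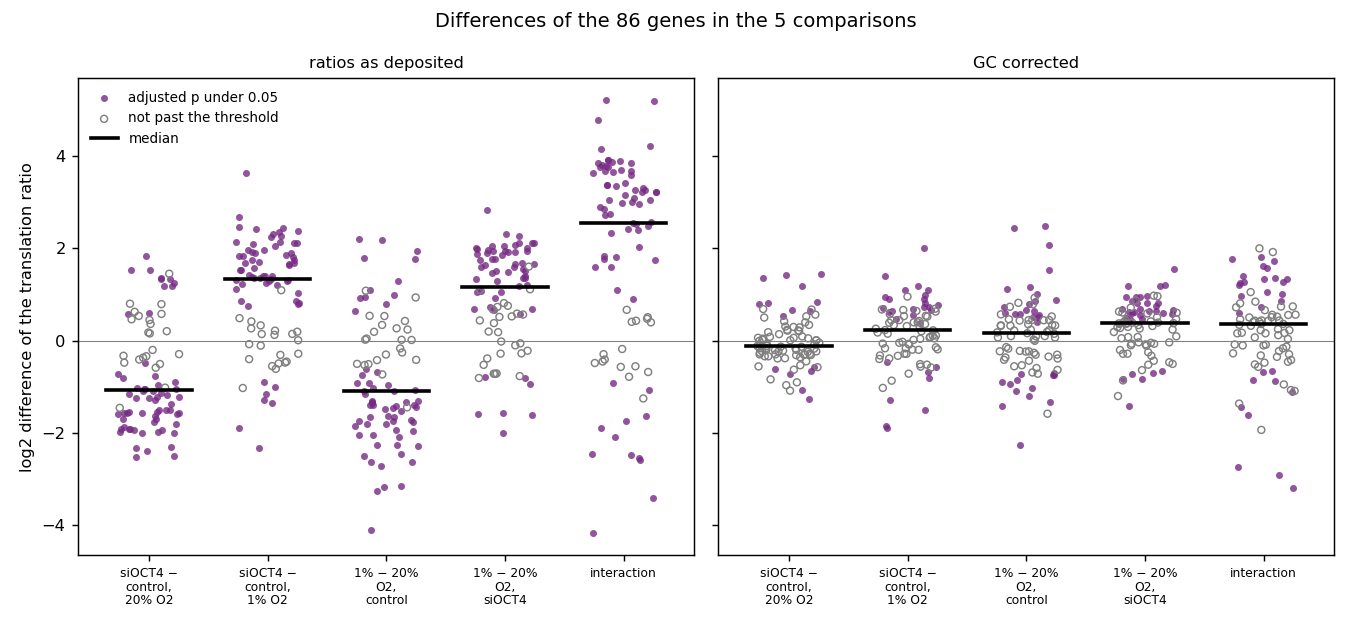
Log2 difference of the translation ratio of each of the 86 genes in the 5 comparisons, as deposited (left) and GC corrected (right); filled points have an adjusted p under 0.05, open points do not, and the line is the median of the 86 genes. As deposited the medians are -1.08, 1.33, -1.09, 1.15 and 2.55 from left to right, and GC corrected they are -0.12, 0.23, 0.17, 0.39 and 0.35.

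Members of the family with a described role were followed whatever their change. ZNF706, whose mouse counterpart is known as a factor for exit from the pluripotent state, had ratios of 1.41 and 1.53 in siOCT4 cells in 1% oxygen, 1.57 and 1.48 in siOCT4 cells in 20%, 0.796 and 0.862 in control cells in 1% and 2.45 and 2.73 in control cells in 20%. Control cells in 20% oxygen were highest, control cells in 1% lowest, and the 2 siOCT4 groups overlapped. It was called lower in siOCT4 cells in 20% oxygen (-0.76 ± 0.13, adjusted p = 0.0052), higher in siOCT4 cells in 1% (0.82 ± 0.13, adjusted p = 0.0029) and lower at 1% oxygen in control cells (-1.64 ± 0.13, adjusted p = 0.00025). GC corrected, the signs of the first 2 turned and both were called, at 20% oxygen (0.80 ± 0.16, adjusted p = 0.028) and at 1% (-0.80 ± 0.16, adjusted p = 0.0098). The decline at 1% oxygen in control cells was not called GC corrected. The 1% oxygen effect in siOCT4 cells was -0.06 as deposited and was called lower GC corrected (-1.42 ± 0.16, adjusted p = 0.0033). ZNF711 had 5.68 and 5.51 in siOCT4 cells in 1% oxygen, 2.01 and 1.95 in siOCT4 cells in 20%, 1.37 and 2.12 in control cells in 1% and 5.26 and 6.02 in control cells in 20%. All 4 comparisons called it as deposited (log2 differences from -1.72 to 1.71) and none GC corrected (from -0.05 to 0.44).

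A pair of genes with roles in the gut and pancreas moved in the direction of most genes. ZNF808, a KRAB protein whose loss in humans causes absence of the pancreas, had 5.38 and 5.14 in siOCT4 cells in 1% oxygen, 1.08 and 1.50 in siOCT4 cells in 20%, 1.44 and 1.84 in control cells in 1% and 2.36 and 4.05 in control cells in 20%. It was called higher in siOCT4 cells in 1% oxygen (1.69 ± 0.31, adjusted p = 0.0046) and at 1% oxygen in siOCT4 cells (2.04 ± 0.31, adjusted p = 0.0026). In siOCT4 cells in 20% oxygen it was called lower (-1.28 ± 0.31, adjusted p = 0.016), though not without the first siOCT4 culture in 20% oxygen (-0.89). In control cells it was called lower at 1% oxygen (-0.92 ± 0.31, adjusted p = 0.042), a call that held in 1 of the 8 fits that leave out a culture, that without the first control culture in 20% oxygen. The difference in those fits ran from -1.31 to -0.54. ZNF800, known for restraining enteroendocrine differentiation, had 3.22 and 3.95 in siOCT4 cells in 1% oxygen, 1.05 and 1.54 in siOCT4 cells in 20%, 1.66 and 1.39 in control cells in 1% and 6.86 and 3.77 in control cells in 20%. Its 4 calls as deposited ran from -2.00 to 1.49, and neither gene was called in any comparison GC corrected. The 1% oxygen call of ZNF800 in siOCT4 cells was lost without the second siOCT4 culture at 1% or the first at 20% oxygen (adjusted p up to 0.065), and its siOCT4 call at 1% oxygen without any 1 of the 4 cultures compared (up to 0.098).

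ZNF827, which brings the NuRD complex to telomeres in cells that lengthen them by recombination, was called higher in siOCT4 cells in 1% oxygen as deposited and GC corrected. Its ratios were 4.10 and 2.85 in siOCT4 cultures, against 0.821 and 1.13 in control cultures (1.83 ± 0.23, adjusted p = 0.0012; GC corrected 1.10 ± 0.22, adjusted p = 0.01). It was also higher at 1% than at 20% oxygen in siOCT4 cells (1.50 ± 0.23, adjusted p = 0.0029; GC corrected 0.85 ± 0.22, adjusted p = 0.029). ZNF830, named Omcg1 in the mouse, where early embryos need it, was called higher at 1% oxygen in siOCT4 cells (1.29 ± 0.22, adjusted p = 0.0038) and not GC corrected (0.08 ± 0.27, adjusted p = 0.85). In control cells it did not pass as deposited (-0.30 ± 0.22, adjusted p = 0.27) and was called higher GC corrected (1.17 ± 0.27, adjusted p = 0.016). Among the GC-rich genes, ZNF703, a corepressor and breast cancer oncogene of the NET family, had 0.930 and 0.346 in siOCT4 cells in 1% oxygen, 0.872 and 0.995 in siOCT4 cells in 20%, 1.58 and 0.842 in control cells in 1% and 0.289 and 0.403 in control cells in 20%. Its cultures in 1% oxygen lay far apart within each group. Of the 4 simple comparisons it passed only 1% against 20% oxygen in control cells (1.76 ± 0.54, adjusted p = 0.033). That call was lost without the first control culture in 1% oxygen or any culture in 20% oxygen, with differences from 1.30 to 2.21. ZNF768 passed none of the 4 (log2 differences from -0.72 to 0.80). ZNF764, a coregulator of the glucocorticoid receptor, passed only 1% against 20% oxygen in control cells (0.79 ± 0.21, adjusted p = 0.018). Its call was lost without the first control culture at either oxygen level (0.57 to 1.01). ZNF787 was called lower in siOCT4 cells in 1% oxygen (-1.89 ± 0.49, adjusted p = 0.017; GC corrected -0.56 ± 0.14, adjusted p = 0.024), a call lost as deposited without the first control culture at 1% oxygen or either siOCT4 culture at 1%.

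A list of 25 genes was counted, with corepressors that KRAB proteins act through, their partners and broader chromatin genes such as DNMT1 and UHRF1. It also held ZFP57, itself a zinc finger gene. Of the list, 24 genes had a ratio in every culture. In siOCT4 cells 12 were called lower and 7 higher at 20% oxygen (50% lower, against 34.1% of all genes), and 15 higher and 1 lower at 1% oxygen (62.5% higher, against 41.1%). At 1% against 20% oxygen 13 were lower and 9 higher in control cells (54.2% lower, against 39.6%), and 17 higher and 2 lower in siOCT4 cells (70.8% higher, against 37.4%). Most of its calls thus had the direction of the calls of the zinc finger genes, at a median transcript GC content of 48.5%. TRIM28, the KRAB corepressor itself, was among the 7 called higher in siOCT4 cells at 20% oxygen and was the 1 called lower at 1% oxygen. Its ratios were 0.337 and 0.329 in siOCT4 cells in 1% oxygen, 0.702 and 0.753 in siOCT4 cells in 20%, 0.856 and 0.803 in control cells in 1% and 0.259 and 0.294 in control cells in 20%. It was called higher in siOCT4 cells in 20% oxygen (1.40 ± 0.20, adjusted p = 0.0027) and lower in siOCT4 cells in 1% (-1.32 ± 0.20, adjusted p = 0.0025). GC corrected, neither passed (0.34, adjusted p = 0.28 and -0.41, adjusted p = 0.15). SETDB1 was called higher in all 4 comparisons, as deposited (log2 differences from 0.66 to 1.21) and GC corrected (from 0.62 to 1.00). TRIM28 and SETDB1 were chosen for their roles after their values were seen.

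CBX3, which encodes HP1 gamma, had 1.90 and 1.86 in siOCT4 cells in 20% oxygen, against 12.1 and 8.57 in control cells (-2.44 ± 0.23, adjusted p = 0.00076; GC corrected -0.79, adjusted p = 0.034). In control cells it showed the largest change of the list at 1% against 20% oxygen, with 0.753 and 0.899 at 1% oxygen (-3.63 ± 0.23, adjusted p = 0.00016; GC corrected -1.70, adjusted p = 0.0012). TRIM33 and TRIM24, relatives of TRIM28, led the siOCT4 effect at 1% oxygen. TRIM33 had 5.23 and 5.29 in siOCT4 cells, against 0.650 and 0.804 in control cells (2.86 ± 0.19, adjusted p = 0.0003; GC corrected 1.16, adjusted p = 0.0012). TRIM24 had 3.46 and 3.86 in siOCT4 cells, against 0.466 and 0.570 in control cells (2.83 ± 0.18, adjusted p = 0.0003; GC corrected 1.35, adjusted p = 0.0012). At 1% against 20% oxygen in siOCT4 cells the largest change of the list was that of ATF7IP, a partner of SETDB1, with 4.93 and 4.59 at 1% oxygen, against 0.961 and 0.938 at 20% oxygen (2.32 ± 0.22, adjusted p = 0.00076; GC corrected 1.11, adjusted p = 0.0041). GC corrected, the list had 3, 12, 14 and 15 of 24 genes called in the 4 comparisons in the order given. These were 12.5%, 50%, 58.3% and 62.5% of the list, against 15.7%, 44.5%, 46.2% and 37.1% of all genes.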

How the data were processed

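RNA and RNC libraries of H9 cells gave 1 translation ratio per gene and culture, a ratio that the authors computed and deposited for 28252 genes. The submitters' processing notes name edgeR and, as genome build, hg19. What each served for, and the mapper, gene annotation, strand setting and filters, are not stated there. The table holds ratios and no counts, so depth, intervals and floors cannot be given. The log2 of the 15864 genes' ratios was fitted with limma 3.58.1 (trend and robust settings, statmod 1.5.0, R 4.3.3), with 4 group means, 4 residual degrees of freedom and two-sided Benjamini-Hochberg adjusted p over all genes (threshold 0.05).

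GC correction took residuals from a spline (6 degrees of freedom) on GENCODE 29 transcript GC content, which 15395 tested genes (97.0%) and all 86 zinc finger genes had. Finger, linker and KRAB letters were searched in the translated coding sequences, and 50-base words in all transcripts. The fit was also run on simulated data with independent noise in each gene and no GC trend. As these ratios carry such a trend, that run cannot speak for the calls given here. Named were up to 6 called genes per direction, by size of change, with groups apart and no recurrent ratio, genes with a described role, the 5 highest and 5 lowest genes in control cells at 20% oxygen, and up to 4 corepressors per comparison. The genes, lists and alternatives were chosen with earlier results of these data known. Other steps used Python 3.11.15 with Biopython 1.88, pandas 2.3.3, scipy 1.17.1, numpy 2.4.6 and matplotlib 3.10.9.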

Additional observations from a re-analysis of the deposited data

Results flagged for a closer look

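The siOCT4 effect differed between 1% and 20% oxygen, by limma's interaction term, for 70 of the 86 zinc finger genes (adjusted p under 0.05 over all genes tested). The background was 68.7% of all genes tested. Among the named genes the interaction, a log2 difference of differences, was positive for ZNF770 (5.19), ZNF879 (4.77), ZNF791 (4.20), ZNF850 (3.90), ZNF816 (3.85), ZNF813 (3.85), ZNF800 (3.23), ZNF711 (3.22), ZNF808 (2.97), ZNF827 (2.42), ZNF830 (1.59) and ZNF706 (1.58). It was negative for ZNF787 (-3.41), ZNF746 (-2.59), ZNF703 (-2.47), ZNF777 (-2.46), ZNF707 (-2.08), ZNF865 (-1.89), ZNF821 (-1.73) and ZNF764 (-1.07). Cultures of all 4 groups enter each value. No group held the 4 samples that a search for single outlying cultures needs.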

How the results depend on the processing

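The counts of called genes depended on GC correction, on quantile normalization and, GC corrected, on single cultures. For siOCT4 at 20% oxygen, siOCT4 at 1% oxygen, 1% oxygen in control cells, 1% oxygen in siOCT4 cells and the interaction they were, in that order, 16, 29, 33, 35 and 29 GC corrected, 16, 30, 35, 21 and 26 corrected for GC content and length, and 7, 31, 30, 19 and 28 quantile normalized. Corrected for GC content and length, 16.5%, 41.2%, 46.9%, 29.7% and 42.9% of all genes were called. With genes that have a recurrent ratio left out, 33, 33, 32, 34 and 35 of the remaining 39 genes were called, against 77.4%, 79.4%, 77%, 80.2% and 85% of all genes in those fits. Fits that leave out 1 culture gave 43 to 62, 53 to 64, 50 to 63, 47 to 66 and 61 to 72 calls as deposited, and 0 to 12, 18 to 36, 21 to 29, 7 to 38 and 18 to 30 GC corrected. In those fits the lone culture of a group is assumed to vary like the others. The share of all genes called in them is not given, so whether the falls are particular to the family was not tested.

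The replicate numbers pair no samples by the labels, and the correlation of same-numbered cultures' deviations ran from -0.233 to 0.0225. With the replicate number as a block, 59 of 60 results for counts and named genes kept direction and side of the threshold as deposited, and GC corrected the counts were 5, 26, 28, 27 and 26.

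Of 1654 alternative values, 1179 kept direction and side of the threshold, 363 kept the direction only and 112 turned round; outside the GC and quantile settings 889 of 934 kept both. The cause of a single turn was not tested. GC corrected (with the block too), then GC and length corrected, siOCT4 at 20% oxygen gave ZNF865 -0.227 and -0.214 and ZNF821 -0.164 and -0.184. The interaction gave ZNF865 1.04 and 0.620, ZNF706 -1.61 and -1.61, ZNF711 -0.352 and -0.461, ZNF764 0.170 and 0.120, ZNF800 -0.275 and -0.345, ZNF808 -0.104 and -0.132, and ZNF830 -1.09 and -0.864 (quantile normalized -0.264). For 1% oxygen in siOCT4 cells ZNF747 gave 0.383 and 0.603, and ZNF821 0.0250 with the second. With 1 culture left out none of these values turned round as deposited. Leaving aside ZNF821 for 1% oxygen in siOCT4 cells, each turned round in at least 1 of 8 GC corrected fits. As deposited and then GC corrected, the interaction ran from -3.19 to -1.76 and from -1.004 to 0.362 for ZNF703, from 1.51 to 1.66 and from -1.80 to -1.41 for ZNF706, and from 2.91 to 3.53 and from -0.584 to -0.120 for ZNF711. It ran from -1.30 to -0.851 and from 0.0018 to 0.339 for ZNF764, from 2.80 to 3.66 and from -0.581 to 0.0304 for ZNF800, and from 2.58 to 3.36 and from -0.601 to 0.393 for ZNF808. For ZNF830 the ranges were 1.34 to 1.84 and -1.45 to -0.729, and for ZNF865 -2.45 to -1.33 and 0.990 to 1.10. The siOCT4 effect at 20% oxygen ran, in the same order, from -2.29 to -1.54 and from -0.628 to 0.0574 for ZNF709, from -2.43 to -1.57 and from -0.539 to 0.0717 for ZNF800, and from 0.499 to 0.659 and from -0.435 to 0.108 for ZNF821. For ZNF865 the ranges were 0.779 to 1.90 and -0.281 to -0.173, and for ZNF879 -3.46 to -1.20 and -2.00 to 0.0700. The 1% oxygen effect in siOCT4 cells ran from -0.897 to -0.695 and from -0.140 to 0.0647 for ZNF707, and from -1.11 to -0.763 and from 0.260 to 0.506 for ZNF747.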
